A study of Mus musculus with 4 samples.

Results

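Lipid-associated macrophage genes are the transcripts by which macrophages that take up and break down lipid are usually recognised in fat. The 9 genes Trem2, Spp1, Plin2, Lgals3, Fabp5, Cd9, Gpnmb, Lipa and Cd63 were taken by symbol from the 31053 genes of the deposited matrices, and all 9 were found. Their unique molecular identifiers (UMIs, 1 for each captured transcript) were summed over classes of stromal vascular cells, the non-adipocyte cells of a digested fat pad. The tissue was mouse inguinal white fat. The iAdFASNKO pool held cells of 8 mice of a line known for an inducible loss, in adipocytes, of Fasn, the gene of fatty acid synthase. The control pool held cells of 7 C57BL/6 mice. Cre driver, inducing agent, age and sex were not given in the sources used here. No cell was gated as an adipocyte, the cell type meant to lose Fasn, so the Fasn levels over all retained cells do not check the labels: 21.7 CPM (UMIs per 1000000) in iAdFASNKO Lin+ and 36.3 CPM in control Lin+, and 24.9 CPM in iAdFASNKO Lin- and 38.0 CPM in control Lin-. Each pool was sorted with magnetic beads into an immune (Lin+) and a non-immune (Lin-) fraction, which gave iAdFASNKO Lin+, control Lin+, iAdFASNKO Lin- and control Lin- as 1 library each. With 1 library per genotype and fraction no difference has a replicate check, no test between genotypes was possible and no p-value is given.

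The 4 libraries held 18336 barcodes, of which 14701 passed the filters, and total UMIs ran from 21622291 to 33016494. Median UMIs per retained cell were 3302 in iAdFASNKO Lin+ and 5359 in control Lin+, and 4150.5 in iAdFASNKO Lin- and 9116 in control Lin-, so the iAdFASNKO libraries were shallower per cell. Each cell was put into 1 of 22 classes by the markers with the highest scaled mean, and is called macrophage-gated, progenitor-gated and so on. None of the 9 genes was a marker, and 738 cells (5.02%) stayed without a class. Pairs of libraries shared 57 to 107 retained barcodes. Shared barcodes were at 0 in the macrophage gate, and numbered 53 of 1644 iAdFASNKO and 95 of 1716 control progenitor-gated cells in Lin+, and 45 of 2307 and 55 of 2231 in Lin-. The macrophage gate was led by C1qa, C1qc, C1qb, Pf4, Mrc1 and F13a1, and all 10 of its markers had UMIs in both Lin+ libraries.

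In obese fat, macrophages around dying adipocytes are known to switch on a shared set of genes for sensing, storing and digesting lipid, and Trem2 is known to be needed for much of it. Trem2 is a surface receptor for lipids and lipoproteins that signals through the adaptor Tyrobp. Plin2 coats lipid droplets, Fabp5 carries fatty acids in the cytosol, and Lipa is the lysosomal acid lipase that frees fatty acids and cholesterol from engulfed lipid. Gpnmb is a membrane glycoprotein of lysosome-rich cells, Cd63 a tetraspanin of late endosomes and lysosomes and Cd9 a tetraspanin of the cell surface. Spp1 (osteopontin) and Lgals3 (galectin-3) are secreted proteins that bind integrins and glycans.

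Promoter windows are shown for Trem2, whose Lin+ UMIs lay mostly in the macrophage gate, and for Spp1, Plin2 and Lgals3, which were lower there in iAdFASNKO. They are the 250 bases before the annotated start on the gene's own strand, from RefSeq on GRCm38.p6, and capitals mark a motif match. Windows were on file for 8 of the 9 genes. The Trem2 window is chr17:48346151-48346400 (+), that of Spp1 chr5:104434861-104435110 (+), that of Plin2 chr4:86670060-86670309 (-) and that of Lgals3 chr14:47373610-47373859 (+).
Trem2: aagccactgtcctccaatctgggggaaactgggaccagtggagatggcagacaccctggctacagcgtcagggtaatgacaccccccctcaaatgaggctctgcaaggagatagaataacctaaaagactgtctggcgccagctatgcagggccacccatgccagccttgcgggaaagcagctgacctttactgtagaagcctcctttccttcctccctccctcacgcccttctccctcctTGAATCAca
Spp1: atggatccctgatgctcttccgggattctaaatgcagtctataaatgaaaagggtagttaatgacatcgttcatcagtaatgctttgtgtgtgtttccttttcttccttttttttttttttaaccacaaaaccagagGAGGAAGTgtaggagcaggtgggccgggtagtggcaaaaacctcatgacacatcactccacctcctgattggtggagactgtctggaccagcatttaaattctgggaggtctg
Plin2: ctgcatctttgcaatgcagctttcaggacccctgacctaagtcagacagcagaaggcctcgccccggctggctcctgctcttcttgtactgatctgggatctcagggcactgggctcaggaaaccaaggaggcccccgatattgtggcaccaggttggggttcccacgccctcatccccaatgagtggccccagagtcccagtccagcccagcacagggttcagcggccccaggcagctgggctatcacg
Lgals3: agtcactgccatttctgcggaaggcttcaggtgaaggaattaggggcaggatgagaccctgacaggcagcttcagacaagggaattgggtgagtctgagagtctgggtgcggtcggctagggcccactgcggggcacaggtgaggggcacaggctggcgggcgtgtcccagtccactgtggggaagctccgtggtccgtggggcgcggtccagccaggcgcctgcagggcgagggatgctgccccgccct
The motifs searched on both strands were CACGTG (the E-box of MiT/TFE factors, which drive lysosomal genes), TGANTCA (AP-1), GAGGAAGT (PU.1, a myeloid factor) and DR1, which is AGGTCA, N and AGGTCA again (the repeat bound by PPAR and RXR). Trem2 had an AP-1 match starting at -9 from the annotated start and Spp1 a PU.1 match starting at -113, while the Plin2 and Lgals3 windows held no match. A second Spp1 window, chr5:104435942-104436191 (+), which lies inside the gene body, held no match either. Among 32851 promoter windows of the same length, 6.02% held the E-box, 6.75% the AP-1 motif, 2.44% the PU.1 motif and 0.0335% DR1. In mm10 the gene bodies lie on chromosome 17, 48346401 to 48354147 (Trem2, + strand), chromosome 5, 104435118 to 104441050 (Spp1, +), chromosome 4, 86648386 to 86670060 (Plin2, -) and chromosome 14, 47367751 to 47386160 (Lgals3, +), per GENCODE M21. The RefSeq start used for the Lgals3 window lies inside that gene body.

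Of the 9 genes Trem2 had the largest share of its Lin+ UMIs in macrophages, while progenitor-gated cells held more UMIs of Plin2, Lgals3, Cd9, Gpnmb, Lipa and Cd63 than any other class in all 4 libraries. Trem2 had 19 UMIs in iAdFASNKO Lin+ and 65 in control Lin+, of which the macrophage gate held 63.2% and 78.5%. Gpnmb had 1934 UMIs in iAdFASNKO Lin+ and 3264 in control Lin+, of which progenitor-gated cells held 96.7% and 96.4% and macrophage-gated cells 0.776% and 1.56%. In Lin- the progenitor share of Gpnmb UMIs was 98.7% in iAdFASNKO and 99.4% in control. Cd63 had progenitor shares between 87.7% and 94.3% over the 4 libraries. For Plin2 these shares were 71.8% in iAdFASNKO Lin+, 70.0% in control Lin+, 93.3% in iAdFASNKO Lin- and 96.2% in control Lin-. Fabp5 and Spp1 had no such common carrier in Lin+: migratory dendritic cells (26.8%) led for Fabp5 and cells without a class (29.2%) for Spp1 in iAdFASNKO, and macrophage-gated cells led for both in control (30.5% and 34.9%). A library-wide sum of Plin2, Gpnmb or Cd63 thus mainly counted progenitors.

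**Figure D1:**
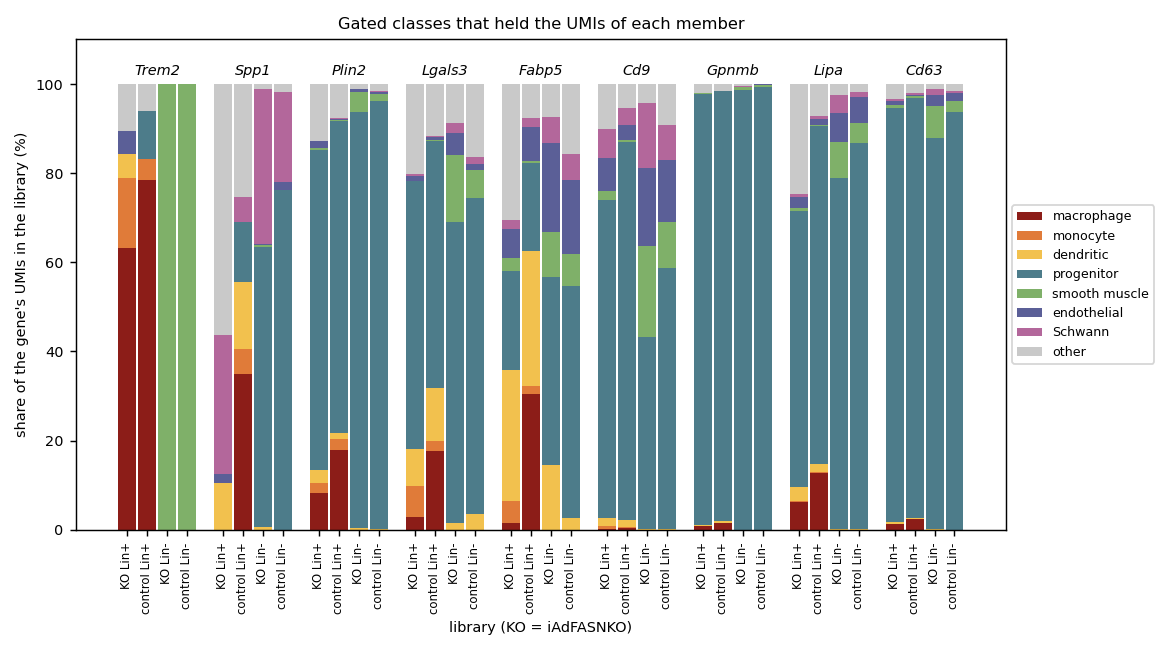
Share (%) of each gene's UMIs held by each group of gated classes (colours, stacked to 100%), with the 4 libraries of each gene side by side and iAdFASNKO (KO) left of control. Macrophage-gated cells held 63.2% and 78.5% of the Trem2 UMIs of the Lin+ libraries (iAdFASNKO, control), while progenitor-gated cells held 96.7% and 96.4% of those of Gpnmb; dendritic joins 4 gated classes, endothelial includes lymphatic endothelial and Schwann includes perineurial cells.

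Levels, given as CPM of the class with an exact 95% Poisson interval, were ranked over the classes with at least 20 cells in a library. Trem2 was highest in macrophage-gated cells, at 47.8 CPM (24.7 to 83.5) in iAdFASNKO and 75.2 CPM (56.0 to 98.9) in control. The next class in control, progenitors at 0.473 CPM, lay apart from it, while in iAdFASNKO the interval of the next class, type 2 dendritic cells at 6.62 CPM from 1 UMI, overlapped. Within Lin+, Lipa was also highest in macrophage-gated cells, at 239 CPM in iAdFASNKO, where the interval of type 2 dendritic cells (139 CPM) overlapped, and 209 CPM in control, apart from the next class. Plin2 was highest there too, apart from the next class in both libraries. In Lin-, Plin2 was highest in progenitors, at 242 CPM in iAdFASNKO and 422 CPM in control. Intervals of the next class overlapped there, type 1 dendritic cells at 127 CPM in iAdFASNKO and type 2 innate lymphoid cells at 366 CPM in control. Gpnmb and Cd63 were highest in progenitors in all 4 libraries, Gpnmb at 167 CPM in iAdFASNKO Lin+ and 212 CPM in control Lin+, and 148 CPM in iAdFASNKO Lin- and 216 CPM in control Lin-. All stood apart from the next class except Cd63 in iAdFASNKO Lin+, at 671 CPM in progenitors and 572 CPM in mast cells with overlapping intervals.

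The level of Cd9 was highest in the Schwann gate in all 4 libraries, at 3140 CPM in iAdFASNKO Lin+, 2017 CPM in control Lin+, 3282 CPM in iAdFASNKO Lin- and 4769 CPM in control Lin-, each apart from the next class. By UMI number, progenitors held most Cd9 in Lin+, 71.3% in iAdFASNKO and 84.8% in control, and Schwann-gated cells 6.18% and 3.50%. In the macrophage gate Cd9 was at 7.97 CPM in iAdFASNKO and 28.0 CPM in control. Lgals3 in Lin+ was highest in type 2 dendritic cells of iAdFASNKO (867 CPM) and in macrophages of control (1116 CPM), where type 1 dendritic (1081 CPM) and type 2 dendritic cells (987 CPM) had overlapping intervals. Fabp5 was at 983 CPM in the 38 migratory dendritic cells of iAdFASNKO Lin-, apart from endothelial cells at 145 CPM. In Lin+ this class was too small to be ranked. It held 103 Fabp5 of 73757 UMIs in 11 iAdFASNKO cells and 124 of 26044 UMIs in 6 control cells, so the level was not particular to iAdFASNKO.

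Trem2 also had a small non-macrophage source. In Lin- every Trem2 UMI lay in smooth-muscle-gated cells, 8 UMIs in 5 of 977 cells of iAdFASNKO and 32 UMIs in 8 of 330 cells of control. In those 5 and 8 cells Tyrobp, C1qa, Cd68, Adgre1 and Csf1r were all at 0 UMIs. The smooth muscle gene Myh11 had 0 UMIs in the 5 iAdFASNKO cells and 1 in the 8 control cells, against 7110 and 5993 CPM in the gate's other cells. Rgs5, a pericyte gene, was at 0 UMIs in all of them, against 261 CPM (iAdFASNKO) and 431 CPM (control) in the other cells, and Kcnj8, another, had 2 and 7 UMIs, 56.2 and 91.8 CPM, against 8.86 and 19.5 CPM. All of them fell into 1 cluster of 182 cells, whose leading genes were H2-M9, Actg2, Rgs5 and Ednrb. Over the whole gate Trem2 was at 1.80 CPM in iAdFASNKO and 11.9 CPM in control, a ratio of 0.151 (0.0603 to 0.335) that rests on these 5 and 8 cells, where 7.96% of genes measured in the gate were lower.

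**Figure D2:**
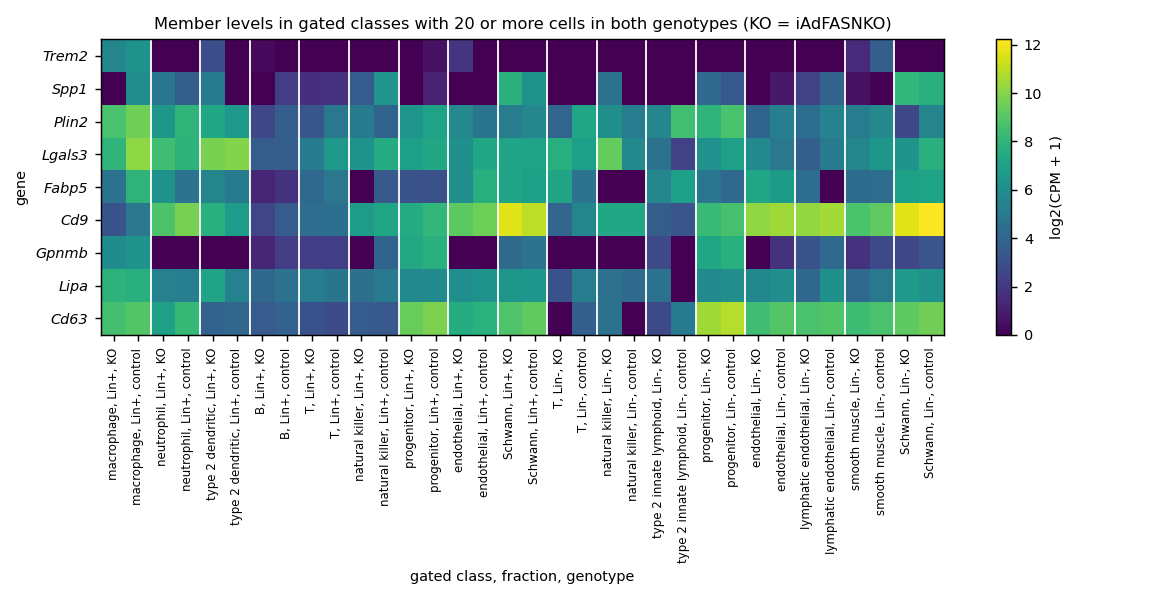
Level of each gene, as log2(CPM + 1) in colour, in the gated classes that had 20 or more cells in both genotypes, with iAdFASNKO (KO) left of control within each pair. Within its own row Trem2 is brightest in the macrophage columns, Cd9 in the Schwann columns, up to 4769 CPM, and Gpnmb in the progenitor columns, up to 216 CPM. All genes share 1 colour scale. In the macrophage columns Trem2, at 47.8 and 75.2 CPM (iAdFASNKO, control), is therefore dimmer than Plin2, Lgals3, Lipa and Cd63.

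In macrophage-gated cells of Lin+, Lgals3, Plin2, Fabp5 and Spp1 were lower in iAdFASNKO, while Lipa, Cd63, Gpnmb, Trem2 and Cd9 did not pass the rule of size. The gate held 50 cells of iAdFASNKO (1.13% of the library) and 125 cells of control (4.33%), with 251074 and 678114 UMIs. It held 0 cells in both Lin- libraries. Of these cells, 5 in iAdFASNKO and 9 in control led the next class by under 2 times the minimum lead of 0.05. A gene with at least 20 UMIs over both libraries counted as measured. It counted as higher or lower when its CPM ratio, iAdFASNKO over control, was at least 1.5 or at most 1/1.5 and the ratio's exact 95% interval left out 1. By this rule 4 of the 9 genes were lower and 0 higher, where of all 5761 measured genes 7.39% were lower and 4.06% higher. The median log2 CPM ratio was -0.87 over the 9 genes, with Spp1 at its bound, and -0.08 over all measured genes. With classes taken from whole clusters in place of the gate, 6 of the 9 were still measured and 1 of these was lower, where 9.12% of all genes passed the rule in either direction. The log2 ratio of Plin2 turned to 0.31 there, and that of Fabp5 to 1.07, from 12 UMIs in all, too few to count as measured.

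Of the secreted proteins, Lgals3 had 64 UMIs in iAdFASNKO and 757 in control, 255 CPM (196 to 326) and 1116 CPM (1038 to 1199), a ratio of 0.228 (0.174 to 0.295). A Lgals3 UMI was seen in 44% of iAdFASNKO and 71.2% of control macrophage-gated cells. After thinning each cell to 1500 UMIs, which left 44 and 115 cells, these shares were 15.9% and 47.8%. Of the ranked classes, B-gated cells had the lowest Lgals3 level in both Lin+ libraries. They had a Lgals3 UMI in 2.31% (iAdFASNKO) and 2.37% (control) of cells, or 1.07% and 1.83% after thinning. Their median depths were 2470 and 2235 UMIs, against 4373.5 and 4967 in macrophage-gated cells. Lgals3 was thus both less frequent among cells and lower in sum.

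Spp1 had 0 UMIs in iAdFASNKO and 44 UMIs, 64.9 CPM (47.1 to 87.1), in control. With iAdFASNKO set to the floor of 3 UMIs the level was 5.43-fold lower, a value that leaves out the counting error of control. The exact upper limit for 0 UMIs was 14.7 CPM. It was seen in 0 of 50 iAdFASNKO cells, where the floor of 3 counts permits a share of cells with a UMI of up to 6%, and in 13 of 125 control cells (10.4%, 5.65 to 17.1). B-gated cells had a Spp1 UMI in 0% (iAdFASNKO) and 0.890% (control) of cells. The other cells of the iAdFASNKO Lin+ library did hold Spp1, 48 UMIs in 19 cells, 12 of these UMIs in Schwann-gated cells.

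Of the lipid-handling genes, Plin2 had 105 UMIs in iAdFASNKO and 519 in control, 418 CPM (342 to 506) and 765 CPM (701 to 834), a ratio of 0.546 (0.439 to 0.675). Unlike Lgals3, Plin2 was seen in about the same share of cells, 70% of iAdFASNKO and 70.4% of control, or 43.2% and 48.7% after thinning. Fabp5 had 6 UMIs in iAdFASNKO and 166 in control, 23.9 CPM (8.77 to 52.0) and 245 CPM (209 to 285), a ratio of 0.0976 (0.0353 to 0.217). Its UMIs came from 2 of the 50 iAdFASNKO cells and 14 of the 125 control cells. B-gated cells had a Plin2 UMI in 1.54% (iAdFASNKO) and 2.67% (control) of cells and a Fabp5 UMI in 0.462% and 0.593%.

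The receptor, the lysosomal genes and Cd9 did not pass the rule. Trem2 had 12 UMIs in iAdFASNKO and 51 in control, a ratio of 0.635 (0.308 to 1.21). Gpnmb had 15 and 51 UMIs, 59.7 and 75.2 CPM, a ratio of 0.794 (0.415 to 1.44). That value rests on 1 iAdFASNKO cell: without the richest cell of each library the log2 ratio of Gpnmb was -3.47, against -0.33 with it, and 5 of the 8 genes then measured were lower. Lipa, the lipase, had 60 UMIs in iAdFASNKO and 142 in control, a ratio of 1.14 (0.829 to 1.55), the only ratio above 1 of the 9. Cd63 had 99 and 333 UMIs, 394 CPM in iAdFASNKO and 491 CPM in control, a ratio of 0.803 (0.635 to 1.01). Cd9, at 2 and 19 UMIs, had a ratio of 0.284 (0.0321 to 1.18). The intervals of these 5 ratios all held 1. Those of Trem2, Gpnmb and Cd9 span more than 3-fold, so folds within these intervals were not detectable at this depth. The intervals of Lipa and Cd63 were narrower.

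**Figure D3:**
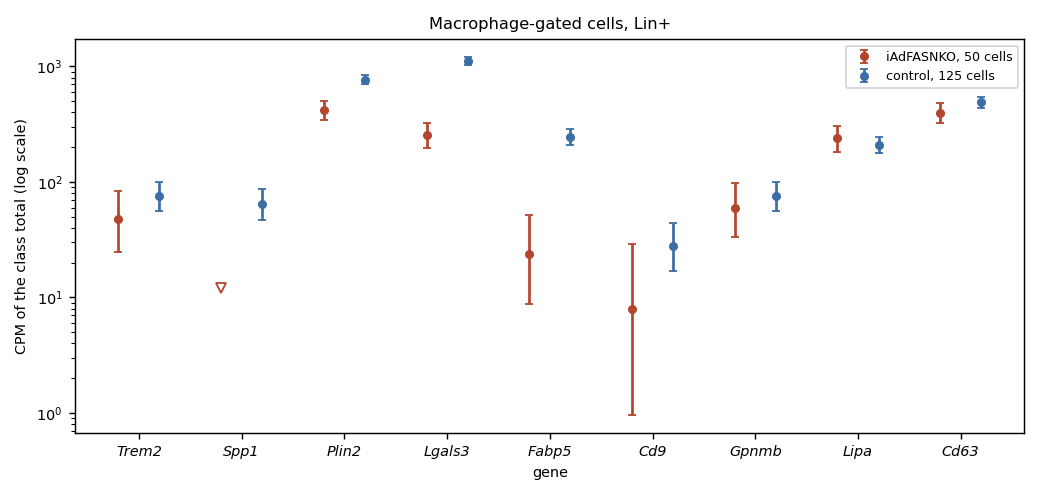
CPM of each gene on a log scale in macrophage-gated cells of Lin+, iAdFASNKO (red) left of control (blue), with exact 95% Poisson intervals for counting error; the open triangle marks Spp1 in iAdFASNKO, which had 0 UMIs, at the floor of 3 UMIs. Lgals3 is at 255 and 1116 CPM and Fabp5 at 23.9 and 245 CPM (iAdFASNKO, control), while the intervals of Lipa and Gpnmb overlap.

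A few cells held most of the UMIs of Fabp5 and Gpnmb. In iAdFASNKO, 1 cell held 14 of the 15 Gpnmb UMIs, together with 3 Trem2, 9 Plin2 and 11 Lgals3 UMIs. In control, the 3 cells richest in Fabp5 held 69, 54 and 19 of its 166 UMIs (85.5%), and the 3 richest in Gpnmb held 21, 11 and 7 of 51 (76.5%). Spp1 was less concentrated in control, with 9, 8 and 8 of 44 UMIs in its 3 richest cells (56.8%). Lgals3 and Plin2 were spread wider still, with 35.8% and 26.4% of the control UMIs in the 3 richest cells.

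Some cells held several of the genes most typical of the lipid-associated state. At least 2 of Trem2, Spp1, Gpnmb and Fabp5 were detected in 1 of 50 iAdFASNKO cells (2%, 0.0506 to 10.6) and 12 of 125 control cells (9.6%, 5.06 to 16.2), and at least 3 of them in 0 and 5 cells. The control cell richest in Gpnmb, with 11820 UMIs in all, held 10 Trem2, 22 Plin2, 75 Lgals3, 54 Fabp5, 21 Gpnmb, 14 Lipa and 19 Cd63 UMIs, with 0 of Spp1 and Cd9. The 12 control cells had a median of 8747.5 UMIs, against 4967 over the control gate, and held 400 of its 757 Lgals3 and 223 of its 519 Plin2 UMIs, genes that did not choose them. After thinning, 1 of 44 iAdFASNKO cells had 2 of the 4 genes, and of 115 control cells 2 had 2 and 2 had 3 of them.

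**Figure D4:**
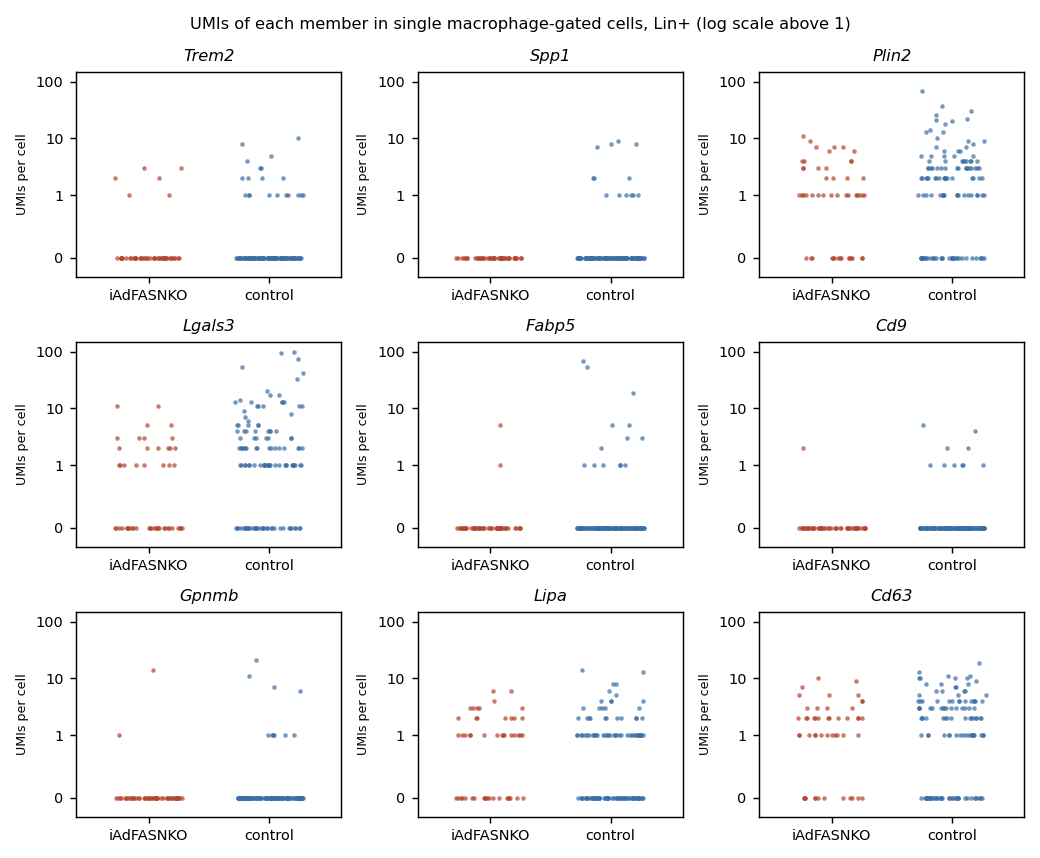
UMIs of each gene (vertical axis, linear to 1 and logarithmic above) in every macrophage-gated Lin+ cell, iAdFASNKO (red, 50 cells) left of control (blue, 125 cells), with points spread sideways at random. The highest iAdFASNKO cells hold 11 Lgals3, 11 Plin2 and 5 Fabp5 UMIs, where control cells reach 100, 70 and 69.

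The lower levels did not lie evenly over the gate. Cells with at least 2 of 6 resident macrophage genes (Lyve1, Cd163, Folr2, Timd4, Cd209f, Cbr2) numbered 36 in iAdFASNKO and 85 in control. Among them Plin2 had 79 and 188 UMIs, a ratio of 0.956 (0.726 to 1.25), and Fabp5 6 and 16 UMIs. Lgals3 was still lower, with 41 and 223 UMIs and a ratio of 0.418 (0.292 to 0.586), and so was Spp1, with 0 and 22 UMIs, where 5.97% of measured genes were lower. Lipa was higher there, with 50 and 69 UMIs and a ratio of 1.65 (1.12 to 2.41), where 3.19% of genes were higher.

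The other cells, with under 2 resident genes, numbered 14 in iAdFASNKO and 40 in control. They held 26 of the 105 Plin2, 23 of the 64 Lgals3 and 0 of the 6 Fabp5 UMIs in iAdFASNKO, and 331 of the 519 Plin2, 534 of the 757 Lgals3 and 150 of the 166 Fabp5 UMIs in control. In these cells Plin2 had a ratio of 0.380 (0.245 to 0.567) and Lgals3 of 0.208 (0.131 to 0.316). Fabp5 was at 0 against 150 UMIs, Spp1 at 0 against 22, and Cd63 had a ratio of 0.494 (0.230 to 0.947), where 11.9% of measured genes were lower. Gpnmb had 14 UMIs in iAdFASNKO, all in 1 cell, and 49 in control.

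Clustering of all cells split the same gate. A cluster led by C1qa, Pf4 and C1qc took 43 iAdFASNKO and 71 control cells of the gate, and a mixed myeloid cluster led by Lyz2, Mpeg1, Plbd1 and Cd209a took 6 and 51. In the C1qa cluster Plin2 was at 394 CPM (316 to 484) in iAdFASNKO and 329 CPM (272 to 394) in control, and Fabp5 had 6 and 5 UMIs. Lgals3 was at 208 CPM (153 to 276) and 346 CPM (288 to 412), and Spp1 had 0 and 4 UMIs. In the Lyz2 cluster the 6 iAdFASNKO cells held 16 Lgals3, 16 Plin2, 0 Fabp5, 14 Gpnmb and 0 Spp1 UMIs, while the 51 control cells held 621, 398, 161, 50 and 40. The Lyz2 cluster thus held most control UMIs of all 5 genes and made up a smaller part of the iAdFASNKO gate. In the C1qa cluster the Lgals3 intervals still stood apart, at a smaller difference than over the gate, while those of Plin2 overlapped. In the Lyz2 cluster Lgals3 was at 669 CPM (382 to 1086) in iAdFASNKO and 2107 CPM (1944 to 2279) in control. Plin2 was at 669 CPM (382 to 1086) and 1350 CPM (1221 to 1490) there. Gpnmb lay the other way, at 585 CPM from 1 iAdFASNKO cell and 170 CPM. These intervals stood apart, but whether the levels differ within the Lyz2 cluster cannot be judged from 6 iAdFASNKO cells.

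Other marker lists moved with the gate. The summed CPM of the 10 monocyte markers, of which 9 had UMIs in each library and Fcnb was at 0, was 645 in iAdFASNKO and 1376 in control. The 10 neutrophil markers summed to 1410 and 2946 CPM and the 4 cycling genes to 19.9 and 192 CPM, with Top2a, Birc5 and Cdk1 at 0 in iAdFASNKO. The 10 type 2 dendritic markers summed to 3342 CPM in iAdFASNKO and 1798 CPM in control, with Klrd1 at 0 in both, Flt3 in iAdFASNKO and Cd7 in control. The 7 dissociation stress genes were at 13661 and 6180 CPM and the 4 haemoglobin genes at 5516 and 2178 CPM. The 10 T markers summed to 207 CPM in iAdFASNKO, with 9 of 10 seen, and 16.2 CPM in control, with 5 of 10 seen and Cd3d and Trac at 0. The 10 mast markers summed to 23.9 and 196 CPM, with Cpa3 and Mcpt4 at 0 in iAdFASNKO and Kit at 0 in both, and the 10 progenitor markers to 255 and 462 CPM. The 10 macrophage markers differed less, at 17393 and 16064 CPM. The part of these differences in the results on the 9 genes was not tested.

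Related genes are given next, beside the 7.39% of all measured genes that were lower and the 4.06% that were higher in this gate. The gate held 6 iAdFASNKO and 51 control cells of the Lyz2 cluster, and the part of that in these counts was not tested. Among 11 measured genes around the Trem2 receptor, 2 were lower and 0 higher, with a median log2 CPM ratio of -0.40. These were Lpl, the gene of lipoprotein lipase, with 51 UMIs in iAdFASNKO and 350 in control, a ratio of 0.394 (0.287 to 0.529), and the kinase gene Btk with a ratio of 0.412 (0.180 to 0.836). Tyrobp, the adaptor of Trem2, had 252 and 884 UMIs and a ratio of 0.770 (0.667 to 0.887), which did not pass the rule. The list's largest ratio was 1.16 for Hcst and its smallest 0.312 (0.0604 to 1.02) for Plcg2.

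Of 19 measured lysosomal genes 5 were lower and 0 higher, all 5 being hydrolases or the proton pump subunit Atp6v1b2, and the median log2 CPM ratio was -0.34. Ctsz, a cathepsin, had 71 and 455 UMIs and the list's smallest ratio, 0.421 (0.323 to 0.542), and Ctsl, Ctss and Gla had ratios of 0.601, 0.593 and 0.474. The list's largest ratio was that of Atp6v0d2, at 1.62 (0.625 to 3.95). Of 3 measured MiT/TFE factors, Tfe3 was higher, with a ratio of 1.56 (1.09 to 2.21), and Mitf had the smallest ratio, 0.831, at a median log2 ratio of 0.04.

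Of 7 measured genes of cholesterol efflux 2 were lower and 0 higher, at a median log2 CPM ratio of -0.21. Abcg1, a sterol exporter, had 5 UMIs in iAdFASNKO and 68 in control, a ratio of 0.199 (0.0625 to 0.487). Nr1h3, the liver X receptor alpha that switches Abcg1 on, had 0 and 26 UMIs. Of 9 measured genes of lipid uptake and droplets, at a median of 0.11, 1 was lower and 0 higher, a share near that of all genes. It was the fatty acid carrier Fabp4, with 11 and 114 UMIs and a ratio of 0.261 (0.127 to 0.484). The largest ratios of these lists were 1.67 (0.769 to 3.50) for Nr1h2 and 2.08 (0.815 to 5.13) for Lipe.

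Other genes published as part of the lipid-associated state were mostly lower. Of 11 measured, 8 were lower and 2 higher, beside 7.39% and 4.06% of all genes, with a median log2 CPM ratio of -0.93. The lower ones were Lgals1, Capg, Cd72, Ctsl, Anxa2, S100a6, S100a4 and Cstb, of which Ctsl is also on the lysosomal list, with ratios from 0.270 (Cd72) to 0.611 (S100a4). The higher ones were Atf3, with a ratio of 1.99 (1.70 to 2.34), which is also among the stress genes, and the stress cytokine gene Gdf15, at 1.87 (1.19 to 2.92). Of 9 measured resident macrophage genes 2 were higher and 0 lower, Cd163 with a ratio of 2.16 (1.80 to 2.58) and Cd209d with 1.91 (1.58 to 2.31), at a median log2 CPM ratio of 0.40. Among 8 other tetraspanins, relatives of Cd9 and Cd63, 0 passed the rule in either direction, with ratios from 0.825 (Tspan3) to 1.32 (Tspan31) and a median log2 CPM ratio of -0.07.

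In progenitor-gated cells, which held the most UMIs of 6 of the 9 genes, Plin2 was lower in iAdFASNKO in both fractions. These fibroblast-like cells give rise to adipocytes, and Plin2 coats their first lipid droplets. In Lin-, Plin2 had 3192 UMIs in 2307 iAdFASNKO cells and 9554 in 2231 control cells, 242 CPM and 422 CPM, a ratio of 0.574 (0.551 to 0.597). In Lin+ it was at 81.9 CPM in iAdFASNKO and 136 CPM in control, a ratio of 0.600 (0.555 to 0.650).

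Of the 8 genes measured in Lin- progenitors 2 were lower and 2 higher, where 5.71% of 12980 measured genes were lower and 9.42% higher. Besides Plin2, Lgals3 was lower, at 70.7 CPM in iAdFASNKO and 118 CPM in control, a ratio of 0.601 (0.557 to 0.648). Fabp5 was higher, with 26.6 CPM in iAdFASNKO and 17.1 CPM in control, a ratio of 1.56 (1.34 to 1.80), close to the limit of the rule. Spp1 was higher as well, with 17.3 CPM in iAdFASNKO and 9.24 CPM in control, a ratio of 1.87 (1.55 to 2.27), and its UMIs came from few cells. Gpnmb (ratio 0.686), Cd9 (0.749), Cd63 (0.759) and Lipa (0.865) lay below 1 without reaching the rule. In Lin+ only Plin2 of 7 measured genes passed it, where 3.98% of genes were lower and 10.4% higher. The median log2 CPM ratio of the measured genes was -0.41 in Lin- and -0.40 in Lin+, against 0.04 and 0.13 over all measured genes.

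**Figure D5:**
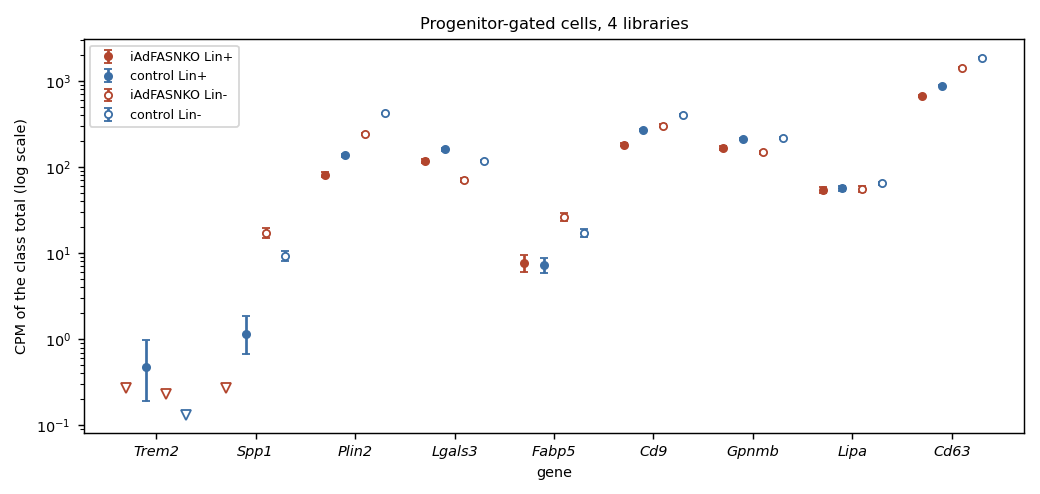
CPM of each gene on a log scale in progenitor-gated cells of the 4 libraries, Lin+ (filled) and Lin- (open), iAdFASNKO (red) left of control (blue) within each fraction, with exact 95% Poisson intervals; open triangles mark 0 UMIs, at the floor of 3 UMIs. Plin2 lies at 81.9, 136, 242 and 422 CPM from left to right.

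Spp1 in Lin- progenitors rested on 28 iAdFASNKO cells with 228 UMIs and 23 control cells with 209 UMIs, and the 2 richest cells held 69 and 69 of the iAdFASNKO and 64 and 45 of the control UMIs. Over all Lin- cells, a cluster whose leading genes include Mfap4, Cilp, Tnc and Thbs4, genes of extracellular matrix, held 179 UMIs in 9 iAdFASNKO cells and 70 UMIs in 4 control cells, 104 and 31.4 CPM. A cluster whose leading genes include Sfrp5 and the perineurial markers Cldn1, Itgb4 and Lypd2 held 64 UMIs in 25 iAdFASNKO cells and 134 UMIs in 15 control cells, 214 and 647 CPM. The sign of the difference was therefore opposite in its 2 main sources. Without cells whose barcode also occurred in another library the log2 CPM ratio of Spp1 was 0.49, and with each cell weighted equally it was 0.13, neither past the rule. The Schwann gate was the other Spp1 source in Lin-, at 272 CPM in iAdFASNKO and 208 CPM in control, with overlapping intervals.

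The lower Plin2 was found in 1 of 2 scored progenitor subsets. Cells scored for Pi16 and Dpp4, genes of early interstitial progenitors, were 62.3% of the progenitor gate in iAdFASNKO Lin+ and 44.8% in control Lin+. Cells scored for Smoc2, Cxcl14 and Col15a1 made up 24.3% and 46.1% in Lin+, and 80.1% and 92.9% in Lin-. In the Pi16 and Dpp4 cells the Plin2 ratio was 1.00 (0.878 to 1.15) in Lin+ and 0.814 (0.498 to 1.34) in Lin-. In the Smoc2, Cxcl14 and Col15a1 cells it was 0.598 (0.535 to 0.667) in Lin+ and 0.606 (0.581 to 0.631) in Lin-, where 3.23% and 6.01% of measured genes were lower. There, in Lin-, Lgals3 (0.575), Gpnmb (0.650) and Cd9 (0.660) were lower too, and Spp1 (2.09) and Fabp5 (1.56) were higher, where 8.12% of genes were. In Lin+ Fabp5 was higher in this subset (1.68), where 8.59% were. Cd9 was higher in the Pi16 and Dpp4 cells of Lin-, with 335 UMIs in iAdFASNKO and 137 in control and a ratio interval of 1.23 to 1.85, where 5.75% were. Cells in neither subset were 13.4% of the gate in iAdFASNKO Lin+ and 9.15% in control Lin+, and 15.1% and 4.80% in Lin-. Their Plin2 was not lower in iAdFASNKO. In Lin+ it was at 90.25 CPM in iAdFASNKO and 72.7 CPM in control. In Lin- it was at 148 CPM (126 to 173) and 87.3 CPM (58.0 to 126). The intervals overlapped in both fractions. The difference between the subsets was not tested.

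The fractions differed as well. Between Lin+ and Lin- progenitors of iAdFASNKO, Spp1, Plin2, Fabp5, Cd9 and Cd63 were lower in Lin+ and Lgals3 was higher, where 10.2% and 18.3% of genes were. Plin2 was at 81.9 CPM in Lin+ and 242 CPM in Lin-, a ratio of 0.338 (0.314 to 0.364), and Cd63 at 671 and 1421 CPM, a ratio of 0.472 (0.460 to 0.485). In control 4 genes were lower in Lin+ and 0 higher, against 9.33% and 12.1% of genes, with ratios of 0.323 for Plin2 and 0.474 for Cd63. The 7 stress genes summed to 4370 CPM in iAdFASNKO Lin+ and 6890 CPM in control Lin+ progenitors, and to 9906 and 14060 CPM in Lin-, the same order as that of Plin2 over the 4 libraries, and their part was not tested.

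Progenitors of iAdFASNKO had higher levels of some partners of these genes. Apoe, a lipoprotein ligand of Trem2, was at 1068 CPM in iAdFASNKO and 379 CPM in control in Lin-, a ratio of 2.82 (2.75 to 2.90), and its ratio in Lin+ was 1.93 (1.84 to 2.03). Clu, another such ligand, had a ratio of 1.98 (1.62 to 2.43) in Lin- and of 0.746 (0.645 to 0.862) in Lin+. Of the genes around the Trem2 receptor 3 of 6 measured were higher and 0 lower in Lin-, and 5 of 11 higher and 1 lower in Lin+, the lower one being Tyrobp, where 9.42% (Lin-) and 10.4% (Lin+) of all genes were higher. Markers of immune cells moved with them in the Lin+ gate. The 10 T markers summed to 28.6 CPM in iAdFASNKO and 9.59 CPM in control, and the 10 natural killer markers to 9.84 and 3.51 CPM. The 10 macrophage markers differed less, at 29.3 and 26.0 CPM. The 10 B markers summed to 1160 and 720 CPM. Of this, 1 marker alone held 1083 and 700 CPM, and the remainder was larger in iAdFASNKO too. B-gated cells were 29.4% of the iAdFASNKO and 11.7% of the control Lin+ library. In Lin- progenitors 1 B marker likewise held 872 of 876 CPM in iAdFASNKO and 642 of 650 CPM in control. All these markers were seen in both Lin+ libraries, and their part in these counts was not tested. Of the 12 measured genes of lipid uptake and droplets in Lin- progenitors, Cd36 (1.76) and Fabp4 (1.68) were higher and Pparg (0.589), the master factor of fat cell formation, was lower. In Lin+ Cd36 (0.368), Fabp4 (0.411) and Pparg (0.364) were lower and 0 of 12 higher, and the opposite directions of Cd36 and Fabp4 in the 2 fractions were not tested. Abca1, a sterol exporter, was higher in both fractions, with ratios of 1.66 in Lin- and 1.54 in Lin+, among 1 and 3 genes higher and 0 lower of 8 measured on the efflux list. Few lysosomal genes passed the rule, with 1 of 18 higher (Scarb2, 1.53) and 1 lower (Ctsz, 0.617) in Lin-, and 0 of 19 higher and 1 lower (Cd68, 0.331) in Lin+. Of 3 MiT/TFE factors 1 was lower in Lin- (Tfeb, 0.536) and 0 passed the rule in Lin+. Of the other lipid-associated genes 1 of 10 was higher in Lin- (Gdf15, 2.24), and in Lin+ 1 of 11 was higher (Cd72) and 1 lower (Atf3, 0.636). Of the tetraspanins 1 of 6 was lower in Lin- (Cd151, 0.621), and in Lin+ 1 of 8 was higher (Cd37) and 1 lower (Cd82). The part of the immune cell RNA seen in the Lin+ gate in the Cd72 and Cd37 calls was not tested. Of the resident macrophage genes 1 of 2 was higher in Lin- (Lyve1, with 70 UMIs in iAdFASNKO and 5 in control), and 2 of 5 in Lin+. Lyve1 was also a leading gene of the lymphatic endothelial gate, while Lin- held 0 macrophage-gated cells. The 7 lymphatic endothelial markers summed to 575 CPM in iAdFASNKO and 347 CPM in control Lin- progenitors, with the highest marker at 471 and 265 CPM. The part of lymphatic RNA in the Lyve1 call was not tested.

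In other classes the 9 genes passed the rule here and there, mostly downward for Plin2 and Lgals3. In T-gated cells of Lin+, Plin2 had 28 UMIs in iAdFASNKO and 23 in control, 8.67 and 28.7 CPM, a ratio of 0.302 (0.168 to 0.549), and Lgals3 had a ratio of 0.351 (0.257 to 0.482), where 7.1% of genes were lower. In type 2 innate lymphoid cells of Lin-, Plin2 had 9 UMIs in iAdFASNKO and 88 in control, a ratio of 0.136 (0.0603 to 0.271), where 6.51% were lower, and Fabp5 had a ratio of 0.428 (0.178 to 0.934). In neutrophils of Lin+ Plin2 (0.343), Cd9 (0.531) and Cd63 (0.439) were lower, where 11.8% were. In Schwann cells of Lin- Lgals3 was lower, with a ratio of 0.374 (0.232 to 0.596), where 5.1% were. Erythroid-gated cells of Lin+ had lower Plin2 (0.205), Lgals3 (0.197) and Cd63 (0.433), where 15.8% were lower, and B-gated cells of Lin+ lower Plin2 (0.419), where 3.25% were. B-gated cells had the lowest Plin2 level of the ranked Lin+ classes, 5.08 CPM in iAdFASNKO and 12.1 CPM in control. Over all retained Lin+ cells Plin2 was at 58.4 CPM in iAdFASNKO and 148 CPM in control, and Lgals3 at 100 and 220 CPM. Progenitors held most UMIs of both. The part of RNA from other cells in the calls of B, T and erythroid cells was not tested. Endothelial cells of Lin+ had lower Lgals3 (0.425) and Fabp5 (0.312), where 7.74% were lower, and those of Lin- lower Plin2 (0.399), where 6.56% were. Smooth muscle cells of Lin- had lower Lgals3 (0.527) and Lipa (0.583) besides Trem2. Natural killer cells of Lin+ had lower Lgals3 (0.407), where 6.12% were, and lymphatic endothelial cells of Lin- lower Lipa (0.234), where 7.21% were.

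Upward calls were fewer. Type 2 dendritic cells of Lin+, 20 in iAdFASNKO and 45 in control, had more Lipa, 21 UMIs in iAdFASNKO and 13 in control, a ratio of 3.48 (1.66 to 7.56), and more Cd9, with a ratio of 1.97 (1.18 to 3.27), where 5.31% of genes were higher. Their Lgals3 was at 867 CPM in iAdFASNKO and 987 CPM in control, with overlapping intervals. Schwann cells of Lin+ had more Cd9 (1.56), where 6.46% were higher, T-gated cells of Lin- more Fabp5, 19 against 2 UMIs, where 8.6% were, and natural killer and endothelial cells of Lin- more Lgals3, at ratios of 12.2 and 2.05, where 7.01% and 4.97% were. Monocyte-gated cells, 19 and 11 in number, had 1273 and 1320 CPM of Lgals3. Among the barcodes that the filters left out, 3 of the 9 genes were higher in Lin-, where 9.59% of genes were, and 2 were lower in Lin+, where 6.43% were.

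Across 31 units of class and library with at least 30 cells, and among 8445 genes, the gene closest to Trem2 in log2(CPM + 10) was Ccl12, with a Pearson r of 0.939, followed by the macrophage genes Cd209g and Cbr2. Gpnmb lay closest to Dnm1 (0.917), Cd63 to Tcf7l2 (0.931), Spp1 to the myelin gene Mag (0.853) and Cd9 to Mbnl2 (0.848). Plin2 (Tubb6, 0.779), Lgals3 (Pdxk, 0.754), Lipa (Cln8, 0.805) and Fabp5 (Paxbp1, 0.621) had looser matches, and none of the 9 had another of the 9 among its 3 closest genes. Units of 1 library share its depth, so these values describe the libraries only.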

How the data were processed

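Single-cell RNA was measured in 4 libraries of mouse inguinal stromal vascular cells. The authors deposited raw UMI counts, whole numbers per gene and barcode, per the file headers and the values. The submitters' processing notes name Cell Ranger 3.1.0, Seurat 3.0 and mm10. The matrix headers name software version 3.0.2. Barcode tag 1 marks Lin+ and tag 2 Lin-, per the labels, and matrix names gave the genotype. Barcodes were kept with 300 genes or more, 500 UMIs or more and a mitochondrial share of 10% or less. Doublets called by Scrublet (scanpy 1.11.5, expected rate 0.06) were removed, 0.935% to 2.22% of cells per library. For the gate, each class scored the mean over its markers of the log of counts per 10000, scaled to the 95th percentile. The top class was taken with at least 3 markers and a lead of 0.05. Counts were summed per class and library. Poisson, Clopper-Pearson (shares) and conditional binomial (ratios) intervals at 95% cover counting error only, and 0 UMIs were set to a floor of 3. The calls were tried on simulated Poisson counts with known ratios. Those lack the crowding of UMIs in a few cells seen here, so they do not check the calls against it. Gene bodies are from GENCODE M21, joined by gene identifier.

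The 9 genes were named by symbol, the 3 nearest genes by correlation, and in each related list the largest and smallest ratio. Genes and lists were chosen with earlier results of these data known, and gate thresholds with the data at hand. Other genes of these lists were named after their values were seen. Alternatives changed cell filters, doublets, gate, scaling, UMI minimum, the richest cell, resident markers and shared barcodes. Software was Python 3.11.15, numpy 2.4.6, scipy 1.17.1, pandas 2.3.3, scikit-learn 1.9.0 and leidenalg 0.10.2.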

Additional observations from a re-analysis of the deposited data

Results flagged for a closer look

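Lgals3 differed in opposite directions in the 2 fractions in a pair of gates, and these differences between fractions were not tested. In natural-killer-gated cells it had 29 UMIs in iAdFASNKO Lin- and 6 in control Lin-, 654 and 53.5 CPM, a ratio of 12.2 (4.98 to 36.0), while in Lin+ it had 7 and 39 UMIs, a ratio of 0.407 (0.154 to 0.921). The gate held only 22 iAdFASNKO and 30 control cells in Lin-, at median depths of 1572.5 and 3662 UMIs. In endothelial-gated cells the Lgals3 ratio was 2.05 (1.34 to 3.19) in Lin-, from 64 and 35 UMIs, and 0.425 (0.243 to 0.737) in Lin+, from 26 and 32 UMIs.

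The barcodes left out by the filters, 542 of iAdFASNKO Lin- and 587 of control Lin-, had higher levels of 3 genes in iAdFASNKO, where 9.59% of all measured genes were higher. Fabp5 had 47 UMIs in iAdFASNKO and 46 in control, a CPM ratio of 2.22 (1.45 to 3.41). Gpnmb had 85 and 79 UMIs, a ratio of 2.34 (1.70 to 3.22), opposite to its ratio of 0.686 in the retained Lin- progenitors. Lipa had 61 and 72 UMIs, a ratio of 1.84 (1.29 to 2.62). In Lin+ the barcodes left out, 1708 and 798, gave a Gpnmb ratio of 0.506 (0.394 to 0.649) and a Cd63 ratio of 0.469 (0.411 to 0.536), both lower, where 6.43% of genes were.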

How the results depend on the processing

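The macrophage result depended on how the class was drawn. With classes from Leiden clusters (53 iAdFASNKO and 77 control cells), 6 of the 9 genes were still measured and 1 was lower, in place of 4 of 9, where 9.12% of all genes passed the rule in either direction, and the median log2 CPM ratio was -0.29. Plin2 turned to 0.31 and Fabp5, on 12 UMIs, to 1.07 there, because the Lyz2 cluster, which held most control UMIs of both, was no longer counted. The median was -1.63 under the stricter cell filter (25 and 58 cells), -1.47 without the richest cell of each gene and -0.23 in cells with at least 2 resident markers. Gpnmb was at -2.80 under the stricter filter and -3.47 without its richest cell, with 5 genes lower in both, and at 0.64 with cells weighted equally. Lgals3 kept a negative log2 ratio in all 14 alternatives, from -2.50 to -0.70. Among these, the UMI minimum, kept doublets and dropped shared barcodes left the counts of this gate unchanged, so Lgals3 stayed at -2.13. Spp1 ran from -2.71 to -0.60 in the 13 that gave a value. With 0 Spp1 UMIs in iAdFASNKO such a value is a bound from the floor. A bound above 0 was not kept, so the sign of Spp1 is no check. In Lin- progenitors the median was -0.45 centred on the median gene, -0.48 with cells weighted equally, -0.43 without the richest cell and -0.46 without shared barcodes, the last chosen after seeing the data. Plin2 stayed between -0.84 and -0.75 in all 12, where the changed UMI minimum could not move it either. Spp1 ranged from 0.13 to 1.46. No paired analysis was possible because each genotype and fraction is 1 library, and no replicate could be left out. A background strain, batch or sort difference between the pools cannot be told apart from the genotype. Genes under 20 UMIs, and folds within the wide intervals of Trem2, Cd9 and Gpnmb, were not detectable at this depth.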
